A study of Mus musculus with 2 samples.

Results

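The interferon-stimulated genes described here are 32 genes of the mouse interferon response, taken by name as known targets of the pathway and not by a threshold on any measured value. All 32 were listed in both libraries, which listed 24765 genes in NW, 25447 in ABX and 26981 in either. They were measured by single-cell RNA sequencing in CD45+ cells of visceral adipose tissue (VAT), the fat around the abdominal organs. Both groups were Wildtype C57BL/6 mice at 15 weeks of age. One group drank normal water (NW) and the other received antibiotics (ABX), described by the study as a cocktail of ampicillin, vancomycin, streptomycin and colistin in the drinking water. CD45, the pan-leukocyte surface antigen encoded by Ptprc, was selected on magnetic beads, and each condition gave 1 library. The number of mice behind each library is not given in the sources used here. With 1 library per condition there was no replicate, so library and treatment cannot be told apart, no test was made, and every interval below is a 95% interval for counting error only.

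Interferons are secreted proteins that cells release after sensing viral or bacterial nucleic acids. Type I interferons bind a receptor that activates the kinases JAK1 and TYK2, and these phosphorylate STAT proteins such as STAT2, which joins IRF9 in a complex that binds the interferon-stimulated response element in the promoters of target genes. Interferon gamma, the type II interferon made by NK and T cells, has a receptor of its own and acts mainly at gamma-activated sites. In VAT the response is known above all from macrophages and is studied as part of adipose tissue inflammation.

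Promoters of 4 members, with roles as RNA binder, ubiquitin-like modifier, antiviral enzyme and virion tether, are shown because they hold the letters that this pathway is known to read. The sequences are from RefSeq on GRCm38.p6, each 150 bases that end just before the annotated gene start, written 5′ to 3′ on the strand of the gene. Ifit1 is at chr19:34640739-34640888 on the plus strand, and the other 3 are on the minus strand, Isg15 at chr4:156200819-156200968, Rsad2 at chr12:26456453-26456602 and Bst2 at chr8:71537473-71537622. Capitals mark GAAA, any 2 bases and GAAA again, or the reverse complement (TTTC, any 2 bases, TTTC), the core letters of the interferon-stimulated response element, with overlapping matches counted separately.
Ifit1: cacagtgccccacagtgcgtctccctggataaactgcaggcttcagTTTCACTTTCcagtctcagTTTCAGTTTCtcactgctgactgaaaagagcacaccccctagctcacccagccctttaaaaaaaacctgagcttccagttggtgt
Isg15: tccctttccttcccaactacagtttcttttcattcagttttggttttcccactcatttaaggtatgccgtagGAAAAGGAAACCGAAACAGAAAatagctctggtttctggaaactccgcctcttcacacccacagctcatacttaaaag
Rsad2: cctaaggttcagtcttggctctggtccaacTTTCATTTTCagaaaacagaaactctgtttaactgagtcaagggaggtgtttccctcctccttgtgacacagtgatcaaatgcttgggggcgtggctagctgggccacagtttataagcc
Bst2: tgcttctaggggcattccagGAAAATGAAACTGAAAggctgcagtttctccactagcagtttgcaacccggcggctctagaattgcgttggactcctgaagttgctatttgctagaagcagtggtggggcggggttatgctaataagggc
In Ifit1 the matches began 104 and 85 bases before the start. Isg15 held 3 overlapping matches, at 78, 72 and 66 bases, Rsad2 held 1 at 120 bases, and Bst2 held 2 overlapping matches at 130 and 124 bases. Over the 250 bases before the start and both strands, the letters were present in 11 of the 23 members with a promoter window (47.8%), against 978 of all 32851 windows (2.98%). The 11 members were Ifit1, Ifit3, Rsad2, Isg15, Oas1a, Oas3, Stat2, Igtp, Bst2, Trim30a and Slfn5. The gamma-activated letters TTCNNNGAA were in 4 member promoters (Ifit2, Oas1a, Igtp and Bst2), or 17.4%, against 7.02% of all windows. These matches describe letters in a window and not binding.

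After filters, 12474 of 17662 NW barcodes and 12724 of 17785 ABX barcodes were analysed, with a median of 5092 unique molecular identifiers (UMIs) per NW cell and 3845.5 per ABX cell. Ptprc, which encodes CD45, had a UMI in 79.9% and 75.4% of these cells. The libraries shared 196 cell indexes, of which 38 fell in the same class, against 41.4 if the indexes were unrelated. Cells were clustered without the members and the other interferon genes, and of the 17 of 18 classes with at least 50 cells in each library, the 16 that could be named are described. The T cell-like class pooled 4 clusters in differing proportions and was left out of comparisons between NW and ABX. Macrophage-like cells also pooled clusters, 3 in all, and are given both together and by cluster. Levels are given as CPM, the summed UMIs of a gene per 1000000 summed UMIs of the same cells. Since ABX cells held fewer UMIs, the ratios of the members over all cells and in macrophage-like cells were also computed on UMIs per cell without scaling.

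Across all cells the interferon-stimulated genes were similar in the NW and ABX libraries, and their summed level was 1236 CPM in NW and 1143 CPM in ABX. The log2 ratio of the sum was -0.11, with an interval from -0.13 to -0.10. Ifi27l2a gave 152 CPM of the sum in NW and 93.1 in ABX, a large part of this difference. Of the 32 members, 22 had a lower and 10 a higher CPM in ABX, and 10 of the intervals included 0. Only Rsad2 and Ifi27l2a were at least 1.5-fold lower in ABX, 2 of 32 against a background of 2.54% of 14505 genes. No member was at least 1.5-fold higher, against a background of 13.3%. The median log2 ratio of the members was -0.16 and that of all genes 0.069. Without scaling, 30 members were lower and 2 were higher per ABX cell, which is the direction of the depth difference.

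The IFIT proteins bind viral RNA and block its translation. Ifit1 was at 9.33 CPM in NW and 8.79 in ABX, Ifit2 at 11.3 and 11.9, and Ifit3 at 14.0 and 12.8. Their log2 ratios were -0.09, 0.08 and -0.14, and only the interval of Ifit3 excluded 0. With the high cells described below left out, the ratios of Ifit1 and Ifit3 turned to 0.21 and 0.11. Part of the Ifit3 signal cannot be separated from Ifit3b, a near-identical neighbour.

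Among effectors that act on nucleotides and membranes, Rsad2 encodes viperin, a radical SAM enzyme that makes a chain-terminating nucleotide. Rsad2 (chr12:26442746-26456452) was at 14.7 CPM in NW and 9.64 in ABX, a log2 ratio of -0.61 with an interval from -0.76 to -0.46. High cells, 82 in NW and 78 in ABX, held 60.0% and 46.4% of its UMIs, and without them the log2 ratio was -0.19. Cmpk2, the neighbouring gene for a mitochondrial nucleotide kinase, was at 5.17 and 5.83 CPM (log2 0.17, but -0.06 as a mean of per-cell levels and -0.16 without scaling). Mx1, a dynamin-like GTPase that traps viral nucleocapsids, was at 17.8 and 13.2 CPM, a log2 ratio of -0.43. Bst2, the membrane tether tetherin, was at 70.9 and 55.9 CPM, a log2 ratio of -0.34 with an interval from -0.41 to -0.28.

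The OAS family makes the oligoadenylate that activates RNase L, apart from the OAS-like member Oasl1. All 5 measured lower in ABX on every scaling used, with log2 ratios from -0.50 in Oasl1 to -0.19 in Oas3. Oasl2 was at 44.6 CPM in NW and 37.6 in ABX, and Oas2 at 19.6 and 16.9. With the class mix of NW imposed on both libraries, the ratio of Oas2 was 0.02. Oas1a, at 10.9 and 8.16 CPM, has close paralogues such as Oas1g, and its UMIs may be shared with them.

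Isg15 encodes the ubiquitin-like modifier itself, Usp18 the protease that removes it and restrains the type I receptor, and Herc6 a ligase that attaches it. Isg15 was at 9.49 CPM in NW and 7.08 in ABX, a log2 ratio of -0.42 that was -0.18 without high cells. Usp18 was at 8.38 and 9.63 CPM, a log2 ratio of 0.20 that was -0.14 without scaling. Herc6 was at 21.4 and 20.6 CPM, with an interval that included 0. The 3 genes of this system thus did not share a direction.

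The sensors Ddx58 (RIG-I), Ifih1 (MDA5) and Dhx58 (LGP2) detect viral RNA, Zbp1 detects Z-form nucleic acid and Ifi204 detects DNA. Ddx58 was at 35.2 CPM in NW and 44.9 in ABX, a log2 ratio of 0.35 that was 0.09 with the class mix of NW in both libraries and 0.01 without scaling. Ifih1, at 27.0 and 22.4 CPM, and Ifi204, at 93.0 and 76.7, had log2 ratios of -0.27 and -0.28. Dhx58 was at 13.3 and 11.6 CPM, and Zbp1, with an interval that included 0, at 14.0 and 14.7. Ifi204 belongs to a family of close copies on chromosome 1, so its UMIs are uncertain between them.

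Irf7 encodes the factor that amplifies type I interferon production, and Stat2 is part of the complex that binds the response element. Irf7 was at 18.6 CPM in NW and 16.1 in ABX, a log2 ratio of -0.21. Stat2 was at 84.9 and 81.2 CPM, a log2 ratio of -0.07 that was 0.02 with the class mix of NW.

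Ifi47 and Igtp are immunity-related GTPases that act on vacuoles holding pathogens and respond strongly to interferon gamma. Together with Ddx58 they had the highest log2 ratios of the 32 members. Ifi47 (chr11:49076587-49096974) was at 60.7 CPM in NW and 84.7 in ABX, a log2 ratio of 0.48 with an interval from 0.42 to 0.54, which was 0.30 with the class mix of NW and 0.15 without scaling. Igtp was at 18.0 and 22.5 CPM, a log2 ratio of 0.32 that was -0.02 without scaling.

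Of the other members, Ifi27l2a, a small hydrophobic protein of mitochondria and the nuclear envelope, differed by the widest margin of the 32. Ifi27l2a (chr12:103442167-103443680) was at 152 CPM in NW and 93.1 in ABX, a log2 ratio of -0.70 with an interval from -0.75 to -0.66. Its UMIs were in 35.5% of NW and 23.0% of ABX cells, and with every cell thinned to 1000 UMIs the shares were 11.3% and 7.39%. The log2 ratio was -0.55 with the class mix of NW in both libraries. Slfn5, a Schlafen family member, stood at 166 and 168 CPM, Trim30a, a TRIM protein of inflammatory signalling, at 127 and 122, and Parp14, an ADP-ribosyltransferase, at 68.4 and 66.1. Slfn1, a Schlafen protein of quiescent T cells, was at 32.9 and 38.2 CPM (log2 0.22, but -0.12 without scaling and -0.07 with the class mix of NW). Rtp4, a chaperone of membrane receptors, was at 30.4 and 26.4 CPM, Xaf1, an XIAP-binding factor, at 23.6 and 24.1, and Ifi44, a cytoplasmic protein of uncertain function, at 1.78 and 1.51. Trim30a, Slfn1 and Slfn5 have close paralogues.

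**Figure D1:**
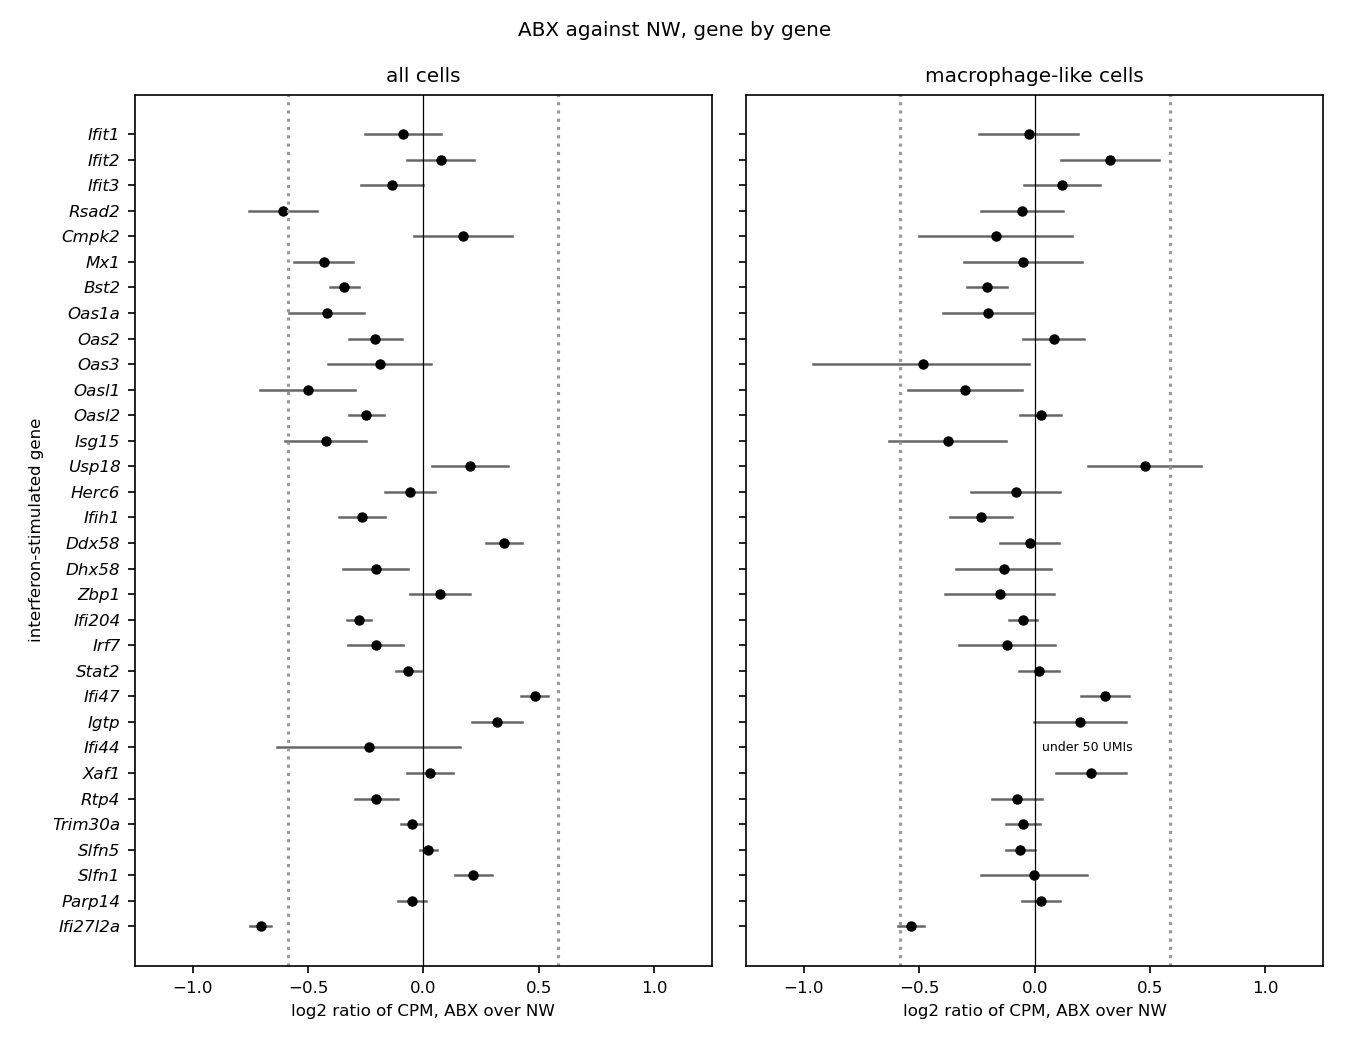
Log2 ratio of ABX over NW (x axis) of each of the 32 members (y axis) in all cells and in macrophage-like cells, points with 95% counting intervals. Ifi27l2a lies at -0.70 and -0.54 and Ifi47 at 0.48 and 0.31, while most members lie close to 0.

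Macrophage-like cells, the most frequent class with 5731 NW and 4959 ABX cells, gave a narrower range. The summed core level, over the 12 members named below, was 131 CPM in NW and 130 in ABX, a log2 ratio of -0.01 with an interval from -0.08 to 0.06. The 3 clusters of the class differed in direction, and this pooled value was -0.03 with the cluster mix of NW in both libraries. In the cluster led by Lyve1 and Fcna, 52.1% of the class in NW and 44.2% in ABX, the core level was 128 and 112 CPM, a log2 ratio of -0.20 with an interval from -0.30 to -0.10. The cluster led by Vcam1 and Cd163, 37.1% and 39.4% of the class, was at 120 and 151 CPM, a log2 ratio of 0.34 with an interval from 0.23 to 0.45. The cluster led by Ccl12 and Cx3cr1, 10.9% and 16.4%, was at 186 and 138 CPM, a log2 ratio of -0.44 with an interval from -0.60 to -0.27. High cells, described below, held 46.3% of the core UMIs of the class in NW and 44.1% in ABX. In the order of these clusters they numbered 25 and 22, 16 and 26, and 8 and 3. Their part in the cluster ratios was not tested. Of 31 members with at least 50 UMIs in the class, 0 were at least 1.5-fold lower (background 1.85% of 12135 genes) and 0 at least 1.5-fold higher (background 8.13%). Ifi44 was the member below that minimum. Rsad2 was at 19.9 and 19.1 CPM in this class, a log2 ratio of -0.05. Ifi27l2a was at 230.5 CPM in NW and 159 in ABX, a log2 ratio of -0.54 with an interval from -0.59 to -0.48. Usp18 was at 8.32 and 11.6 CPM, a log2 ratio of 0.48 that was 0.03 without scaling, and Ifi47 at 49.2 and 60.8 CPM, a log2 ratio of 0.31 that was -0.14 without scaling.

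Each member had its own pattern across the classes, which the rule for choosing members did not use. Over both libraries, the highest class was macrophage-like for 6 members and neutrophil-like for 6, NK cell-like and conventional DC1-like for 4 each, and CD8 T cell-like, endothelial-like and mature DC-like for 3 each. Bst2 was highest in conventional DC2-like, Igtp in gamma-delta T cell-like and Zbp1 in plasma cell-like cells. These classes include none for plasmacytoid DC-like cells, which have Bst2 as a surface marker and are described at the end. Plasmacytoid DC markers were at 740 CPM in NW and 581 in ABX in conventional DC2-like cells. The part of such cells in this Bst2 level was not tested. The highest class was the same in NW and ABX for 18 of 32 members, and it was the same with and without high cells for 28. Oas3, Oasl1 and Cmpk2 were highest in neutrophil-like cells in NW only, and Rsad2 in neither library taken alone. All core members together had 58 UMIs in NW and 14 in ABX in neutrophil-like cells, and 3 high cells held 44.8% of those in NW. For many members the first classes in order could not be separated by their counting intervals, as for Ifit1 in CD8 T cell-like cells (19.1 and 25.1 CPM in NW and ABX) and endothelial-like cells (32.7 and 13.5).

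Mature DC-like cells, dendritic cells that carry Ccr7 and Fscn1, stood apart in a few members only. Mx1 was at 180 CPM in NW and 162 in ABX there, against 40.3 and 37.1 in conventional DC1-like cells, the next class in order, and 2.27 and 2.65 in plasma cell-like cells. Mx1 UMIs were in 50.8% and 49.3% of mature DC-like cells, and in 15.2% and 16.9% with cells thinned to 1000 UMIs. In B cell-like cells the shares were 2.57% and 1.48% before and 0.617% and 0.333% after thinning, with median depths of 4076.5 and 3939 UMIs against 7913 and 7441 in mature DC-like cells. No class here is known to lack these genes, so the lowest class serves only as an upper limit on free RNA. Usp18 was likewise highest in mature DC-like cells, at 39.5 CPM in NW and 44.9 in ABX, whereas Irf7 was lowest there, at 4.77 and 3.60, and Ifi204 too, at 6.81 and 5.39. Herc6 was at 62.0 CPM in NW and 23.4 in ABX, a log2 ratio of -1.41 resting on 91 and 13 UMIs. The 73 ABX cells of this class set the precision.

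Conventional DC1-like cells had the highest Stat2, at 143 CPM in NW and 154 in ABX, and Trim30a, at 216 and 214. In the same cells Ddx58 was at 2.93 and 3.06 CPM, the lowest of the 16 classes, against 90.6 and 97.9 in NK cell-like and 92.4 and 93.2 in B cell-like cells. Oas1a, Oas2 and Rtp4 were also lowest in conventional DC1-like cells and highest in macrophage-like cells, with Rtp4 at 2.51 and 2.29 CPM against 50.8 and 48.2. Stat2 and Trim30a thus had the opposite order to Rtp4 between these 2 classes in both libraries, at 76.2 and 77.3 CPM and at 115.5 and 111.5 CPM in macrophage-like cells.

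The immunity-related GTPases were highest in lymphocytes. Ifi47 was at 281 CPM in NW and 272 in ABX in NK cell-like cells and at 239 and 253 in CD8 T cell-like cells, against 12.4 and 18.8 in conventional DC1-like cells. Igtp was at 79.5 and 54.1 CPM in gamma-delta T cell-like and at 56.0 and 83.3 in regulatory T cell-like cells, and the order of these 2 classes differed between the libraries. Slfn1 was at 472 and 432 CPM in neutrophil-like cells and at 205 and 202 in CD8 T cell-like cells, against 7.13 and 7.93 in innate lymphoid 2-like cells. Slfn5 was at 314 and 456 CPM in endothelial-like cells and 303 and 302 in conventional DC1-like cells. Ifi204 was at 164 and 158 CPM in macrophage-like cells, and the next class, endothelial-like, was at 86.7 and 66.7.

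**Figure D2:**
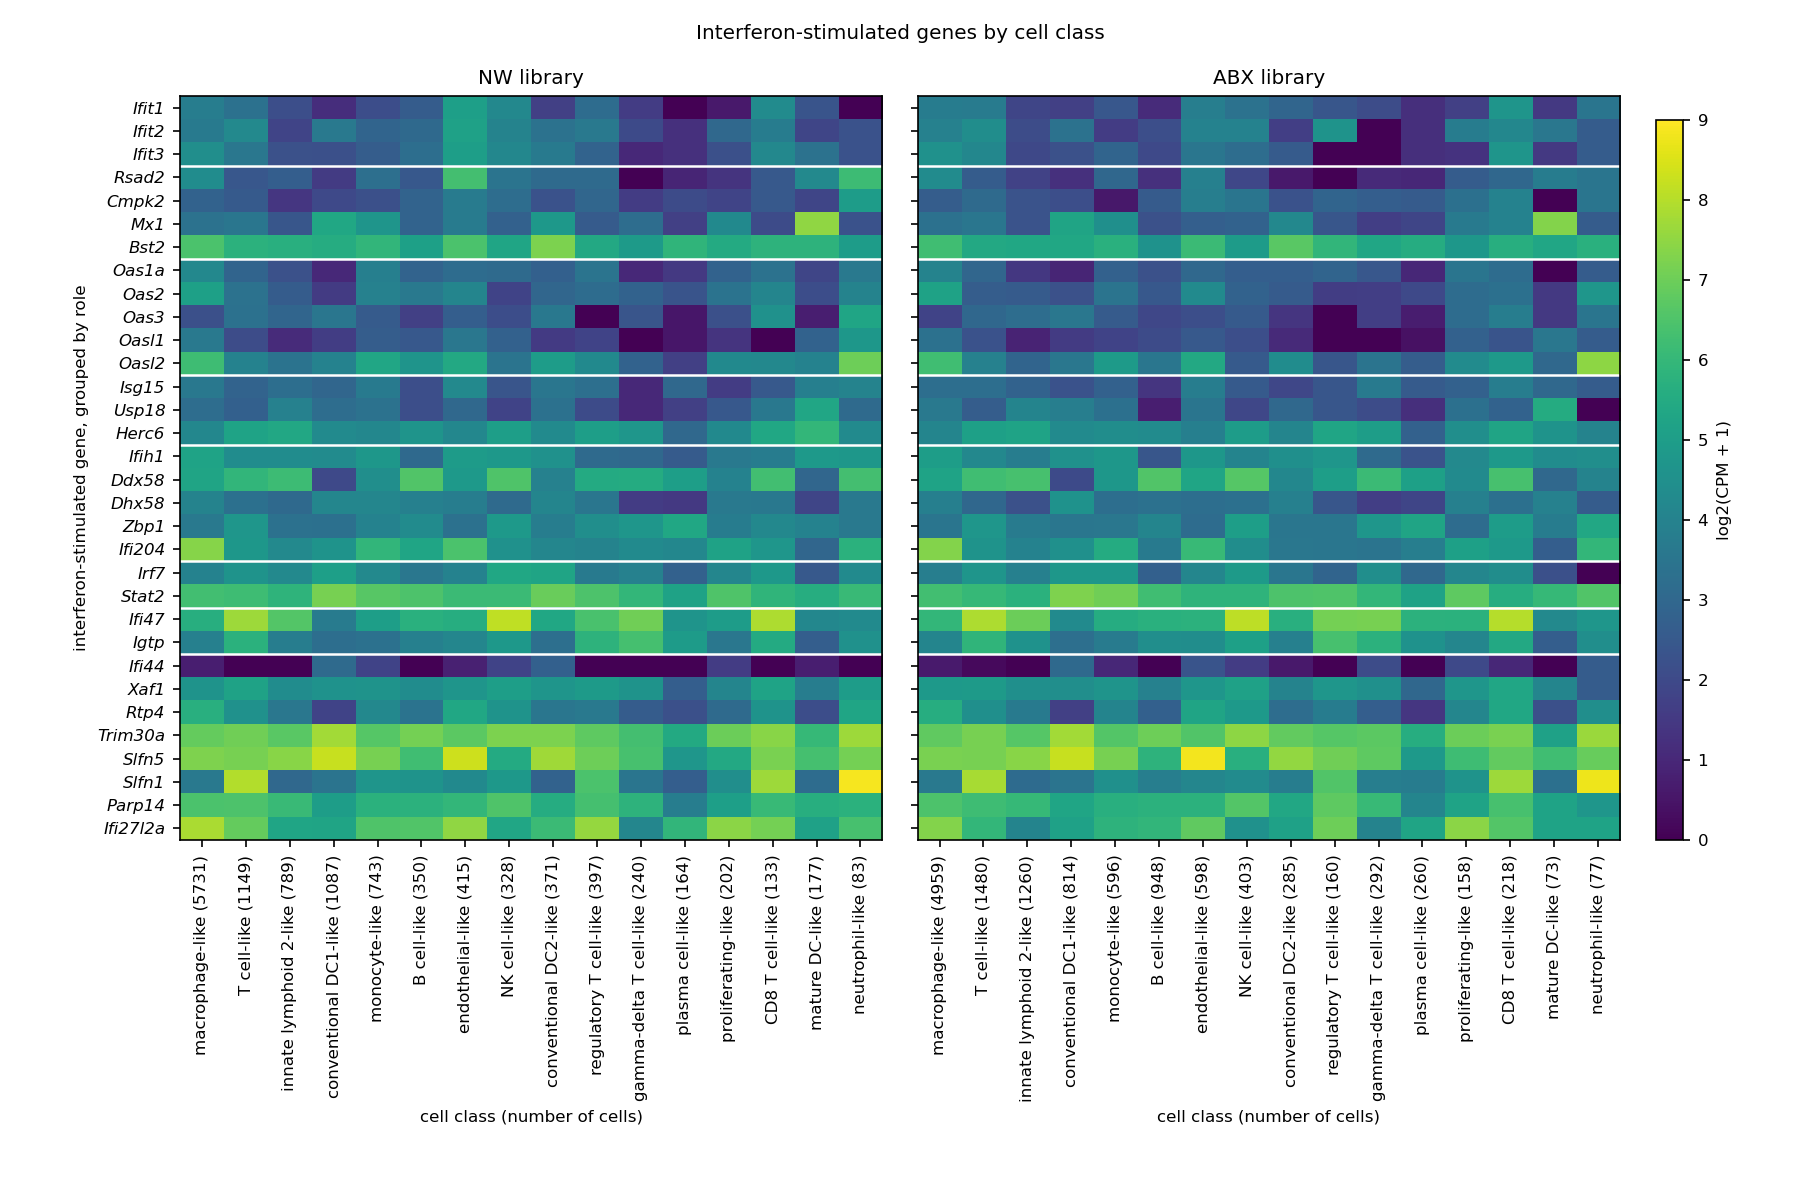
Level of each of the 32 members (rows, grouped by role) in 16 cell classes (columns), NW and ABX side by side, as colour on a scale of log2(CPM + 1). Mx1 reaches 180 and 162 CPM in mature DC-like cells, Slfn1 472 and 432 in neutrophil-like cells and Ifi47 281 and 272 in NK cell-like cells.

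Across classes with at least 50 UMIs for the gene, the T cell-like class left out, a few members kept a direction. Ifi27l2a was lower in ABX in 12 of 13 classes, 10 with intervals below 0, and in all 13 without scaling. It was at 38.2 CPM in NW and 15.9 in ABX in innate lymphoid 2-like cells, a log2 ratio of -1.27, and at 90.9 and 56.0 in monocyte-like cells, a log2 ratio of -0.70. Conventional DC2-like cells had 69.3 and 34.7 CPM. In proliferating-like cells it was at 172 and 170 CPM, and in conventional DC1-like cells the log2 ratio was -0.12 with an interval from -0.37 to 0.12. Bst2 was lower in 12 of 14 classes, 6 with intervals below 0, and Ifi204 in 10 of 10, 3 with intervals below 0. The counts of Bst2 and Ifi204 were the same without scaling and with ratios centred on the median gene. Ifi204 and Ifi27l2a were highest in macrophage-like cells over both libraries. Summed macrophage markers were also lower in ABX in each class compared, except NK cell-like cells (2421 CPM in NW and 2675 in ABX). They were at 3475 and 1877 CPM in innate lymphoid 2-like and at 3133 and 1616 in B cell-like cells. Their part in these ratios was not tested.

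Ifi47 was higher in ABX in 11 of 13 classes, 7 with intervals above 0, but in 8 of 13 without scaling. Its log2 ratio was 1.15 in plasma cell-like cells, from 24.5 CPM in NW to 54.4 in ABX, and 0.73 in regulatory T cell-like cells, from 83.7 to 139. In NK cell-like and CD8 T cell-like cells, where its level was highest, the log2 ratios were -0.05 and 0.08 with intervals that included 0. Ddx58 was higher in 10 of 12 classes, 2 with intervals above 0, and in 6 of 12 without scaling. Mx1 was lower in 7 of 7 classes and Isg15 in 5 of 5, on both scales, with 1 and 3 intervals below 0. The classes of a library share its RNA background, so they are not independent repeats.

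Core genes, the 12 members Ifit1, Ifit2, Ifit3, Rsad2, Isg15, Mx1, Oasl1, Usp18, Cmpk2, Ifi44, Oas3 and Irf7, differed between the libraries in some classes by more than their counting intervals. The widest ratio of a named class was in neutrophil-like cells, with 83 NW and 77 ABX cells, at 219 and 72.1 CPM, a log2 ratio of -1.60 with an interval from -2.56 to -0.74. It rested on 58 and 14 UMIs, and without high cells it was -0.77 with an interval from -1.80 to 0.17. The direction was opposite in proliferating-like cells, at 64.4 and 90.6 CPM, a log2 ratio of 0.49 with an interval from 0.12 to 0.86. There 1 ABX cell held 50 of the 122 core UMIs, and without high cells the ratio was -0.25 with an interval from -0.69 to 0.18.

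In endothelial-like cells the summed core level was 260 CPM in NW and 125 in ABX, a log2 ratio of -1.06, and 7 of 28 members were at least 1.5-fold lower against a background of 4.59%. A single NW cell held 330 of the 675 core UMIs, 48.9%. Without high cells the levels were 68.9 and 93.0 CPM and the log2 ratio turned to 0.43, with an interval from 0.16 to 0.71. Rsad2 was at 79.3 and 14.2 CPM in this class with high cells included. Cdh5, a defining endothelial gene, was in 14.9% of its NW and 24.9% of its ABX cells, and the summed macrophage markers were at 15563 and 11155 CPM, values whose part in the result was not tested.

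In conventional DC2-like cells the summed core level was 138 CPM in NW and 59.4 in ABX, a log2 ratio of -1.21 that was -0.42 without high cells. Irf7 was at 36.9 and 10.5 CPM there, a log2 ratio of -1.82, and 5 of 17 members were at least 1.5-fold lower against a background of 3.28%. These values include the high cells of the class, 3 in NW and 0 in ABX. In NW they held 42.8% of the 362 core UMIs, and a single cell held 95. Their part in the Irf7 ratio was not tested. In B cell-like cells the core level was 62.8 and 31.5 CPM, a log2 ratio of -0.99 that was -0.82 without high cells, and 5 of 16 members were at least 1.5-fold lower against a background of 6.68%. Ifi204 was at 38.2 and 11.7 CPM in B cell-like cells, a log2 ratio of -1.71. Macrophage markers moved the same way in both classes, from 2713 to 1955 CPM in conventional DC2-like and from 3133 to 1616 CPM in B cell-like cells, and their part in these differences was not tested. Mature DC-like cells were at 282 and 257 CPM, a log2 ratio of -0.13 with an interval that included 0.

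**Figure D3:**
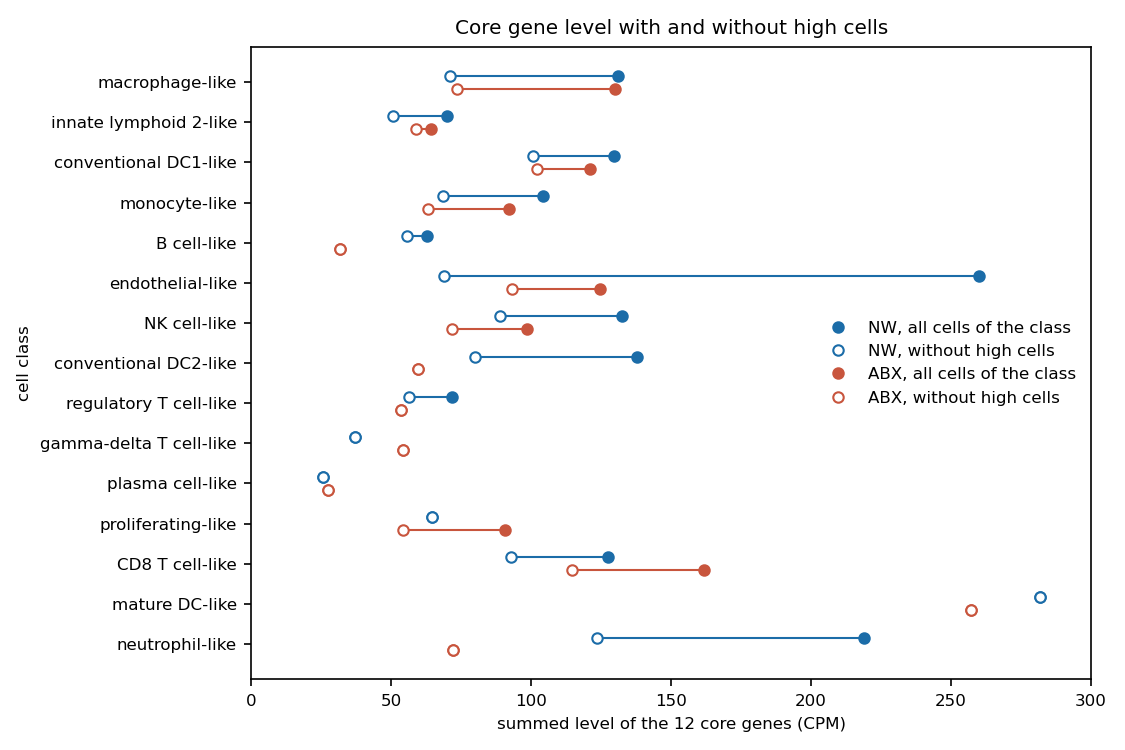
Summed level of the 12 core members per class (CPM, x axis) in NW and ABX, with all cells and without high cells. Endothelial-like cells go from 260 and 125 CPM to 68.9 and 93.0, while mature DC-like cells stay at 282 and 257.

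The core UMIs were spread very unevenly over cells. In NW 75.4% of the cells, and in ABX 79.7%, held no core UMI. High cells were defined by at least 20 core UMIs per 10000 UMIs from at least 3 core members, which made 82 NW cells (0.657%) and 78 ABX cells (0.613%). They held 38.1% and 31.0% of all core UMIs and 9.25% and 8.10% of member UMIs. The share differed by a log2 ratio of -0.10, with an interval from -0.55 to 0.35. With cells thinned to 1000 UMIs, and 249 NW and 376 ABX cells left out as shallower, the shares were 0.546% and 0.442%.

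High cells are a range of a score and not a cell type. Their median score was 47.3 core UMIs per 10000 in NW and 33.6 in ABX, and the highest was 581 and 253. Around the limit, between 15 and 25, there were 36 NW and 41 ABX cells, of which 11 and 20 were inside it. A median of 8 of the 12 core members was detected per high NW cell and 7 per high ABX cell. Their median depth was 5583.5 UMIs in NW and 4292.5 in ABX, against 5090.5 and 3842.5 in other cells. Of the high cells, 2.44% and 6.41% were in the top 10% of doublet scores.

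Macrophage-like cells made up 59.8% of the NW and 65.4% of the ABX high cells, against 45.9% and 39.0% of all cells. In that class 49 NW cells (0.855%, interval 0.633% to 1.13%) and 51 ABX cells (1.03%, interval 0.767% to 1.35%) were high, and after thinning the shares were 0.752% and 0.714%. High cells were in all 3 macrophage-like clusters. The cluster led by Lyve1 and Fcna had 25 and 22, the cluster led by Vcam1 and Cd163 had 16 and 26, and the cluster led by Ccl12 and Cx3cr1 had 8 and 3. Among mature DC-like cells there were 0 of 177 in NW and 0 of 73 in ABX, which allow shares of up to 1.69% and 4.11% at 3 counts of the total (exact binomial upper limits 2.06% and 4.93%, as plotted), although 69.5% and 71.2% of these cells held a core UMI.

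**Figure D4:**
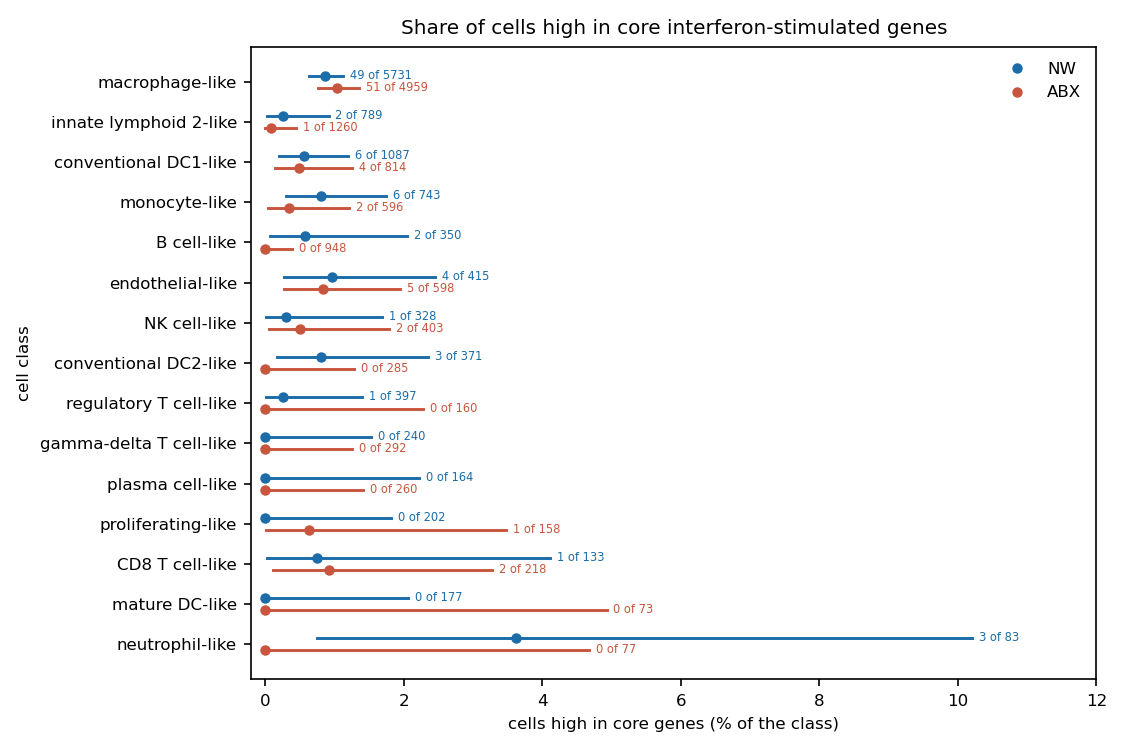
Share of high cells per class (percent, with exact 95% binomial intervals) in NW and ABX. Macrophage-like cells are at 0.855% and 1.03%, and the intervals of NW and ABX overlap in every class shown.

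So that no core gene chose the cells it was described in, each was measured in macrophage-like cells chosen by the other 11. By that measure 30 of 32 members were at least 5-fold higher in high than in other macrophage-like cells of both libraries, and all 32 intervals lay above 1. Over 3086 genes with at least 30 UMIs in the high cells, the background for the same fold was 2.4%, and the median gene was at 0.972-fold in NW and 0.986-fold in ABX. That minimum favours genes with a high level in the high cells, and 29 of the 74 genes past it were members. Of the 20 members that took no part in choosing any cell, 18 passed 5-fold.

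The IFIT genes had among the widest ratios. Ifit2 was at 999 CPM in high NW cells against 3.99 in other macrophage-like cells, 250-fold with an interval from 203 to 309, and at 995 against 5.64 in ABX, 176-fold with an interval from 140 to 222. Ifit1 was 173-fold and 97.1-fold higher, and its UMIs were in 84.8% and 68.2% of high cells against 2.36% and 1.97% of the others. Ifit3 was 157-fold and 78.0-fold higher. Rsad2 and Cmpk2, neighbours on chromosome 12, were 161-fold and 157-fold higher in NW and 94.5-fold and 113-fold in ABX. Isg15 was 89.9-fold and 52.2-fold higher, and Mx1 91.9-fold and 42.2-fold.

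Members outside the core went with them at lower ratios. Slfn1, a gene at 7.76 and 9.53 CPM in other macrophage-like cells, was 58.6-fold higher in high NW cells, with an interval from 47.3 to 72.2, and 19.6-fold in ABX, with an interval from 13.9 to 27.0. Zbp1 was 24.4-fold and 15.9-fold higher, Oasl2 15.6-fold and 15.9-fold, and Ifi47 16.7-fold and 12.5-fold. Stat2 was 11.0-fold and 7.30-fold higher. The lowest ratios were those of Trim30a, 6.89-fold and 4.70-fold, and of Ifi27l2a, 3.23-fold and 3.11-fold. Ifi27l2a, the member with the widest difference between libraries, had the lowest of these ratios, and high cells held 2.51% of its UMIs in NW and 2.70% in ABX.

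**Figure D5:**
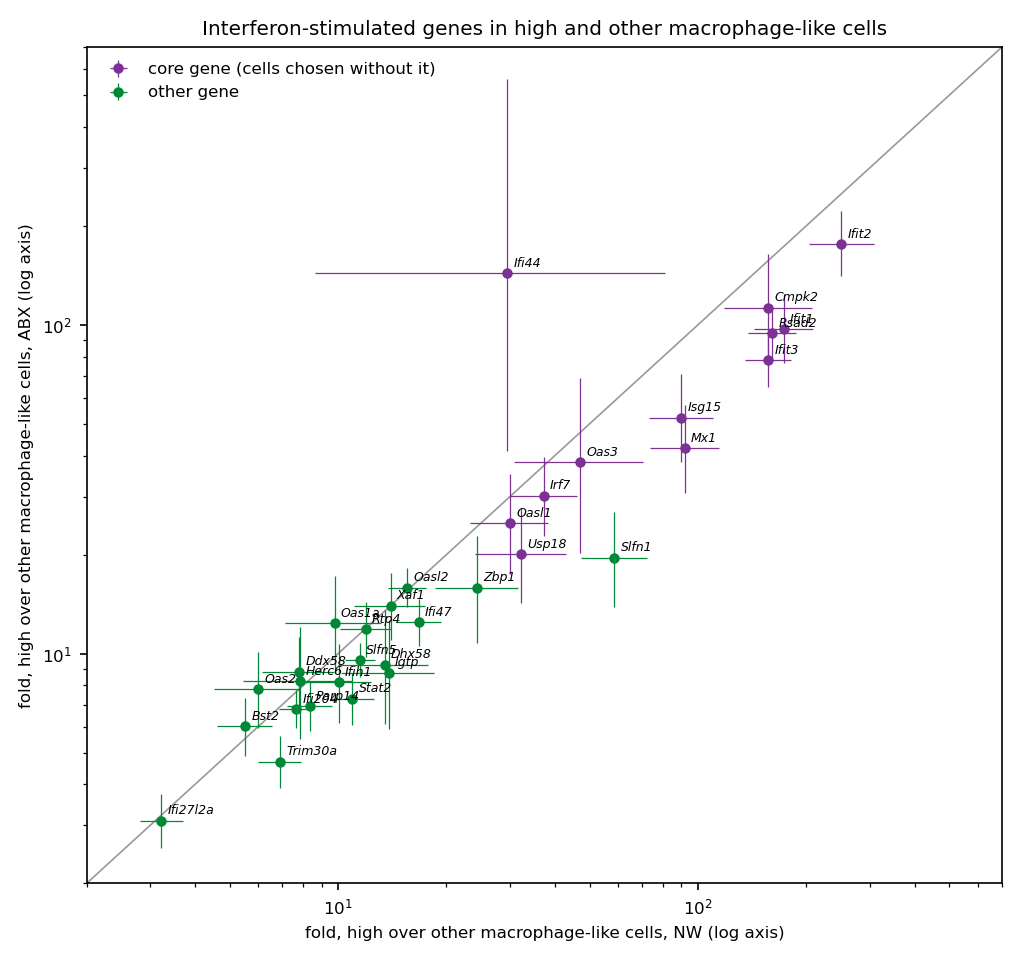
Ratio of CPM in high over other macrophage-like cells for each member (log axis) in NW and ABX, with 95% counting intervals, core members measured in cells chosen by the other 11. Ratios run from 250 and 176 for Ifit2 down to 3.23 and 3.11 for Ifi27l2a.

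Taken as a list, markers of macrophages were close between high and other macrophage-like cells. The 10 macrophage markers had a median of 245 per 10000 UMIs in high NW cells against 255 in the others, and 210 against 226 in ABX. Among these 10, Fcgr1 was 6.20-fold higher in high NW cells and 5.56-fold in high ABX cells, on 117 and 89 UMIs. Some other lists differed in summed level, on few UMIs in the high cells. The monocyte markers were at 70.7 CPM in high NW cells against 275 in the others, and at 264 against 213 in ABX. B cell markers were lower in high cells of both libraries, at 10.1 against 36.1 CPM and 36.5 against 108. Fibroblast markers were at 426 CPM in high ABX cells against 170 in the others, and the part of these lists in the ratios above was not tested. When interferon genes were allowed into the clustering, a cluster led by members appeared with 48 NW and 57 ABX cells, of which 46 and 55 came from macrophage-like cells and 31 and 33 were high.

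Beyond the members, 97 further genes of the pathway were followed from lists by role. Of 6 receptor genes, 0 were at least 1.5-fold different between the libraries, where the background was 2.54% lower and 13.3% higher, and the list is too short to be read against it. Ifnar1, the signalling chain of the type I receptor, was at 80.6 CPM in NW and 71.3 in ABX. The 5 receptor genes with enough UMIs were all under 2-fold in high over other macrophage-like cells, with Ifnar1 at 0.666-fold and 0.733-fold. The 3 kinases had 0 genes past 1.5-fold, with the same limit. Interferon genes themselves were near the limit of detection, with 9 and 4 UMIs of Ifnb1 in all, except for Ifng at 8.95 and 9.41 CPM.

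Genes that respond mainly to interferon gamma included several with higher levels in ABX. Of 14 such genes with enough UMIs, 5 were at least 1.5-fold higher and 0 lower, with a median log2 ratio of 0.40, against the all-cell background of 13.3% higher. The 5 were the guanylate-binding proteins Gbp4 (log2 0.71) and Gbp6 (0.79), the GTPases Tgtp1 (1.45) and Tgtp2 (0.68), and the chemokine Cxcl9 (1.00). Tgtp1 rested on 82 UMIs in NW and 181 in ABX. Cxcl9 had 465 and 750 UMIs, in a similar share of cells, 0.625% in NW and 0.668% in ABX. With the class mix of NW in both libraries 4 were past 1.5-fold (Gbp6, Tgtp1, Cxcl9 and Cxcl10) and the median was 0.26, and without scaling 2 were, Tgtp1 and Cxcl9, with a median of 0.06. In macrophage-like cells 2 of 13 were higher and 0 lower, against the background of 8.13% higher, with a median of 0.22. Gbp4, Gbp6 and Tgtp2 had log2 ratios of 0.47, 0.41 and 0.38 there, and Gbp2 was at -0.58. Ifi47 and Igtp, immunity-related GTPases like Tgtp1 and Tgtp2, had log2 ratios of 0.48 and 0.32 over all cells, the latter not kept without scaling. Socs1, an inhibitor of JAK signalling, was at 15.3 CPM in NW and 27.1 in ABX, a log2 ratio of 0.83 that was 0.52 with the class mix of NW and 0.49 without scaling. Of 46 other interferon-stimulated genes tested, 3 were higher (Ly6a, Ly6c2 and Helz2) against the background of 13.3%, and 2 lower (Oas1g and Trim30c) against 2.54%. With the class mix of NW, 1 was higher, Ccl12, and 0 were lower. In high macrophage-like cells 11 of 15 interferon gamma genes and 40 of 47 other interferon-stimulated genes had at least 30 UMIs. Of these, 9 and 22 were at least 5-fold higher in both libraries, against a background of 2.4% under the same minimum. That minimum leaves out genes that are low in the high cells, so these shares do not describe the whole lists. Among genes left out, Ifitm1 was at 1.33-fold and 0.18-fold and Helz2 at 16.7-fold and 10.5-fold. Iigp1 was 50.6-fold and 49.5-fold higher, but Ciita was at 0.649-fold and 0.830-fold. Cxcl9 had too few UMIs to be counted, with 6 in 1 high NW cell and 0 in high ABX cells.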

How the data were processed

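The authors deposited a table of UMI counts per cell and gene for each library, made with the BD Rhapsody WTA Analysis Pipeline 1.8 on the mouse genome GRCm38 (mm10) and later analysed by them in R 3.6.0 and Seurat 3.0.1. The counts were used as deposited, and 8 of 10 antibody columns were used for clustering. Cells with at least 500 UMIs, at least 200 genes and at most 25% mitochondrial UMIs were kept. Clusters were made in Seurat 5.3.0 (R 4.3.3) from RNA and antibodies with 2000 variable genes, without interferon genes, 30 components and resolution 0.6, and were named from fixed markers by rules completed after the clusters had been seen. CPM, exact Poisson ratio intervals and shares were computed in Python 3.11.15 with scipy 1.17.1 and checked on simulated data. Calls needed 50 UMIs over both libraries and a 1.5-fold difference. Doublets were kept, since Scrublet (scanpy 1.11.5) called 344 NW cells and 1 ABX cell, and the 10% with the highest scores were removed as an alternative. All 32 members are named, along with genes from pathway lists. Members and lists were chosen with earlier results of these data known. Leaving out high cells, imposing the NW class or cluster mix, values by macrophage-like cluster and several descriptions of high cells were added after the data had been seen. With 1 library per condition there was no test.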

Additional observations from a re-analysis of the deposited data

How the results depend on the processing

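Over all cells the summed levels stayed lower in ABX under every alternative run, and their sizes moved with scaling and cell make-up. Ifi27l2a, at 152 CPM in NW and 93.1 in ABX, made up a large part of the difference in the member sum. For the member sum over all cells (log2 -0.11), the values were -0.45 without scaling, -0.18 centred on the median gene, -0.095 without high cells and -0.079 with the class mix of NW. For the core sum (-0.21) they were -0.55, -0.28, -0.056 and -0.12 in the same order. In macrophage-like cells the member sum (-0.094) was -0.545 without scaling and -0.12 centred, and the core sum (-0.01) was -0.46 without scaling and -0.15 with clusters from RNA only, and it was above 0 without high cells (0.05) and at most 10% mitochondrial UMIs (0.016). With at least 40 core UMIs per 10000, the log2 ratio of the share of high cells was -0.61 over all cells (main value -0.10) and -0.40 in macrophage-like cells (main value 0.27), which was -0.07 after thinning to 1000 UMIs. The 2 members at least 1.5-fold lower over all cells became 1 as a mean of per-cell levels, 9 without scaling, 0 at 2-fold and 0 with the class mix of NW. The 0 such members in macrophage-like cells became 1 at most 10% mitochondrial UMIs and 9 without scaling. Of 63 single-gene ratios, 61 moved by more than their counting interval without scaling, 10 without high cells and 0 without the highest doublet scores. With the class mix of NW, 17 of the 32 ratios over all cells moved in this way. No paired analysis was possible because each condition has 1 library. Classes with under 200 cells per library, such as neutrophil-like, could show only wide differences at this depth.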

Other observations

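At a finer resolution of 1.0, a cluster of plasmacytoid DC-like cells, a cell type known for type I interferon production, held 16 NW and 6 ABX cells. Bst2, a surface marker of these cells in mice, was at 1480 CPM in NW and 1536 in ABX and had a UMI in each of the cells. Trim30a was at 506 and 472.5 CPM, Stat2 at 214 and 236, Ifi47 at 117 and 165, and Irf7 at 87.6 and 47.3, on 9 and 2 UMIs. Ifit1, Ifit2, Ifit3 and Rsad2 had 0 UMIs in these cells in both libraries. None of the 16 NW and 6 ABX cells was high, which allows shares of up to 18.75% and 50%.

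High cells were also present among the T cell-like, CD8 T cell-like, regulatory T cell-like and NK cell-like classes, 7 in NW and 13 in ABX. Measured in cells chosen by the other core members, Ifit3 was 301-fold and 247-fold higher than in other T and NK cell-like cells, and Ifit1 251.5-fold and 212-fold. Rtp4 was 32.9-fold and 15.0-fold higher, Slfn5 14.4-fold and 12.4-fold, and Slfn1 4.66-fold and 3.46-fold. Oas2 had 0 UMIs in the 7 NW high cells and 1 in the 13 ABX high cells. The 49 NW and 51 ABX high macrophage-like cells held 57 and 63. The Oas2 ratio in T and NK cell-like cells had an upper limit of 11.5-fold in NW. In ABX it was 2.44-fold with an interval from 0.061 to 14.2. Both ranges include the Oas2 ratios in macrophage-like cells, 6.01-fold and 7.79-fold, so a difference between these cells was not shown.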
